A study of Homo sapiens with 6 samples.

Results

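The genes described here encode the proteins of tight junctions, the nectins and the apical polarity complexes, and were chosen by gene symbol from a fixed list of 33 names: 12 claudins, 7 other tight junction membrane proteins, 4 scaffolds, 6 polarity proteins and 4 nectins. All 33 were found by Ensembl identifier among the 60664 genes of the count table. RNA sequencing was done on SKOV3, an established human ovarian carcinoma line with the ERBB2 gene known to be amplified, in 3 libraries of cells carrying a short hairpin against JUP (shJUP 1 to 3, genotype given as JUP knockdown) and 3 libraries of cells carrying the control hairpin (shNC 1 to 3, genotype given as WT). JUP encodes plakoglobin, a catenin of desmosomes and adherens junctions. The design text calls the replicates independent, and neither the hairpin sequences, the vector, the day of harvest nor whether clones or pools were used is given in the sources used here. Library totals were 17456121 to 18908278 estimated counts for shJUP and 18157973 to 19279514 for shNC.

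Tight junctions seal the space between neighbouring epithelial cells at the apical end of their contacts. Claudins form the strands and set which ions pass, occludin and its relatives and the JAM proteins lie beside them, and ZO proteins such as TJP1 tie the strands to actin. Nectins are immunoglobulin-like adhesion molecules that bind the scaffold afadin and help to build adherens junctions, and the PAR and Crumbs complexes mark the apical side of the cell and place the junction. The comparison sets the transcripts of these junction systems in cells with the JUP hairpin against those in cells with the control hairpin.

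The target and the cell identity were read first. JUP stood at 39.9, 93.6 and 24.6 CPM in shJUP 1, 2 and 3, against 104, 133 and 101 CPM in shNC 1, 2 and 3 (CPM here is each library's count scaled to a common size by TMM). shJUP 2 thus kept 83.0% of the mean shNC level, against 35.4% in shJUP 1 and 21.9% in shJUP 3. The log2 fold change of JUP was -1.10 (SE 0.44), short of the threshold by edgeR's quasi-likelihood test (adjusted p = 0.47). It was also short of it by DESeq2 (adjusted p = 0.18) and by edgeR with the library number as a block (adjusted p = 0.12). Only DESeq2 with that block passed on all 6 libraries, at -1.30 (adjusted p = 0.048). Of 13 carcinoma markers of this line 10 reached 1 CPM in some library, with ERBB2, PAX8 and the keratins KRT8 and KRT18 high. The summed level of the 13 was 3630 to 5940 CPM in shJUP and 5600 to 8240 CPM in shNC. Most of that sum was ERBB2 alone, at 2320, 4420 and 3270 CPM in shJUP 1, 2 and 3, against 4390, 6910 and 4220 CPM in shNC 1, 2 and 3. MUC16, MSLN and WFDC2 did not reach 1 CPM in any library, and CDH1, the epithelial cadherin, reached 2.12 CPM at most. Markers of other cells that reached 1 CPM were 7 of 10 for fibroblasts, 6 of 10 for endothelium, 5 of 8 for mesothelium and 1 of 10 for leukocytes. WT1 and MSLN stand in both the carcinoma and the mesothelial list, and WT1 is counted as reaching 1 CPM in both. The fibroblast sum ran from 11.8 to 269 CPM in shJUP and from 44.8 to 544 CPM in shNC, mostly through COL1A1. COL1A1, a collagen gene, stood highest in shJUP 1 at 253 CPM and in shNC 2 at 401 CPM. Their part in the results was not tested. These are bulk RNA levels, in which fewer cells with a transcript and less of it per cell cannot be told apart.

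No gene of the list differed between shJUP and shNC by the edgeR quasi-likelihood test at an adjusted p of 0.05. Enough counts for the test were present for 26 members, and 0 of them were called, as were 0% of the 15867 genes tested in all. DESeq2 called 0 members, against 1.19% of its 15066 genes (0.664% higher and 0.524% lower in shJUP). When edgeR was fitted with a block for library number, it called 0 members and 0.00630% of all genes, that share being 1 gene that was lower in shJUP. DESeq2 with the block called 0 members and 5.25% of all genes (2.35% higher and 2.91% lower). An unadjusted edgeR p under 0.05 was reached by 2 of the 26, CLDN4 and NECTIN1, both higher in shJUP. That is 7.69%, against 10.0% of all genes (5.17% higher and 4.87% lower). The 3 shJUP libraries did not overlap the 3 shNC libraries for 2 of the 26, PARD3 and NECTIN1, both higher in shJUP. That is again 7.69%, against 17.0% of all genes (8.39% higher and 8.65% lower). Among tested members 14 lay above 0 and 12 below, where 48.6% of all genes lay above 0 and 51.4% below. Their median log2 fold change was 0.03, beside -0.009 over all genes.

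**Figure D1:**
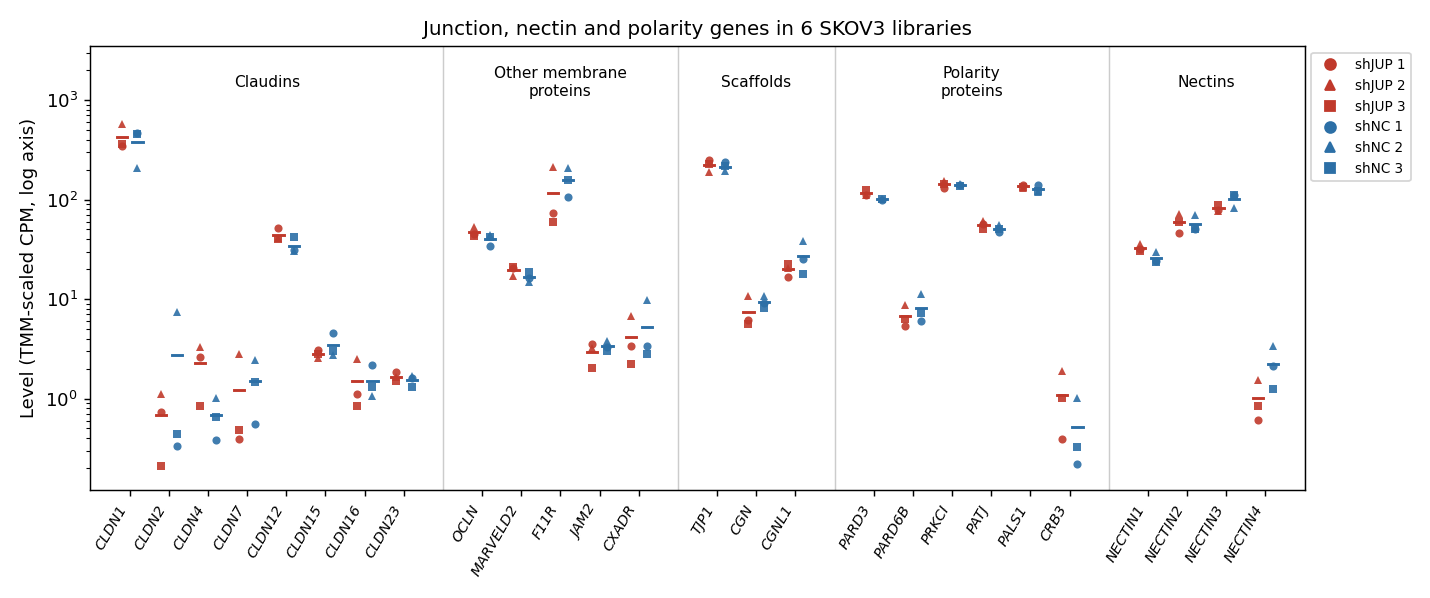
Level of the 26 tested members in each library (TMM-scaled CPM, log axis), with shJUP in red left of shNC in blue, horizontal bars at the group means, and triangles for the number-2 libraries. CLDN1 is the highest member at 209 to 572 CPM, and the groups separate for PARD3 and NECTIN1 and overlap for the other genes.

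CLDN1, a barrier-forming claudin, was by far the most abundant member of its family in these cells. It stood at 343, 572 and 360 CPM in shJUP 1, 2 and 3, against 462, 209 and 456 CPM in shNC 1, 2 and 3. The groups overlapped because the number-2 libraries went opposite ways, shJUP 2 being the highest library of all and shNC 2 the lowest. The log2 fold change was 0.18 (SE 0.33, 95% interval -0.60 to 0.95, edgeR adjusted p = 0.88). Leaving out shJUP 2 and shNC 2 together turned it to -0.38, which edgeR did not call (adjusted p = 0.15) and DESeq2 did (adjusted p = 0.042), so that the direction of CLDN1 rests on those libraries. In that DESeq2 fit 4.51% of all genes passed, 2.08% higher and 2.43% lower in shJUP. It was also below 0 when either of them alone was left out, at -0.10 without shJUP 2 and -0.11 without shNC 2.

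Per kilobase of exon, which allows genes to be compared with each other, CLDN1 made up 91.7 ± 1.9% of the summed level of the 12 claudins in shJUP and 90.6 ± 5.1% in shNC (SD, n = 3 each). CLDN12, an unusual claudin without the PDZ-binding tail that ties other claudins to ZO proteins, came next with 5.48 ± 1.8% in shJUP and 4.91 ± 1.6% in shNC, or 9.38 ± 3.0% in shJUP and 8.43 ± 2.6% in shNC with the longest transcript as length. CLDN15, which forms cation pores, held 0.819 ± 0.26% in shJUP and 1.12 ± 0.31% in shNC, where CLDN2 averaged 1.13 ± 1.8%. The share of CLDN1 was lowest in shNC 2, at 84.7%, where CLDN2, a cation-channel claudin of leaky epithelia, reached 3.21% (139 counts, against 6 and 8 counts in shNC 1 and 3 and 4 to 21 counts in the shJUP libraries).

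CLDN12 was measured at 51.2, 41.1 and 39.8 CPM in shJUP 1, 2 and 3, against 31.3, 30.1 and 41.9 CPM in shNC 1, 2 and 3. The 3 shJUP libraries lay above 2 of the controls and overlapped shNC 3, with a log2 fold change of 0.35 (SE 0.17, edgeR adjusted p = 0.54). CLDN15 was low, at 3.07, 2.56 and 2.81 CPM in shJUP 1, 2 and 3, against 4.59, 2.71 and 2.99 CPM in shNC 1, 2 and 3. Its means were 2.81 ± 0.25 CPM in shJUP and 3.43 ± 1.0 CPM in shNC (log2 -0.28, SE 0.29, edgeR adjusted p = 0.75).

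CLDN4, with CLDN3 a receptor of Clostridium perfringens enterotoxin and a claudin that many ovarian carcinomas make in large amounts, was at trace level here. It had 47, 62 and 16 counts in shJUP 1, 2 and 3, against 7, 19 and 12 counts in shNC 1, 2 and 3, or 2.62, 3.31 and 0.85 CPM against 0.387, 1.01 and 0.653 CPM. Each shJUP library lay above the control of the same number, a pattern not counted over all genes, but shJUP 3 lay below shNC 2. Its log2 fold change of 1.71 (SE 0.58, 95% interval 0.36 to 3.07) was the highest of the tested members and missed the threshold in edgeR (adjusted p = 0.44) and in DESeq2 (adjusted p = 0.21). CLDN3, its neighbour in function, had 0 to 11 counts and was not tested. The other claudins that were tested gave no call: CLDN2 (log2 -1.98, SE 1.20), CLDN7 (-0.29, SE 0.83), CLDN16 (-0.01, SE 0.49) and CLDN23 (0.11, SE 0.28), each at most 7.38 CPM in any library. CLDN6, CLDN9 and CLDN10 had at most 2, 1 and 3 counts in any library. A count of 0 allows up to 3 counts, which is 0.159 to 0.167 CPM in these libraries, for counting error only.

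**Figure D2:**
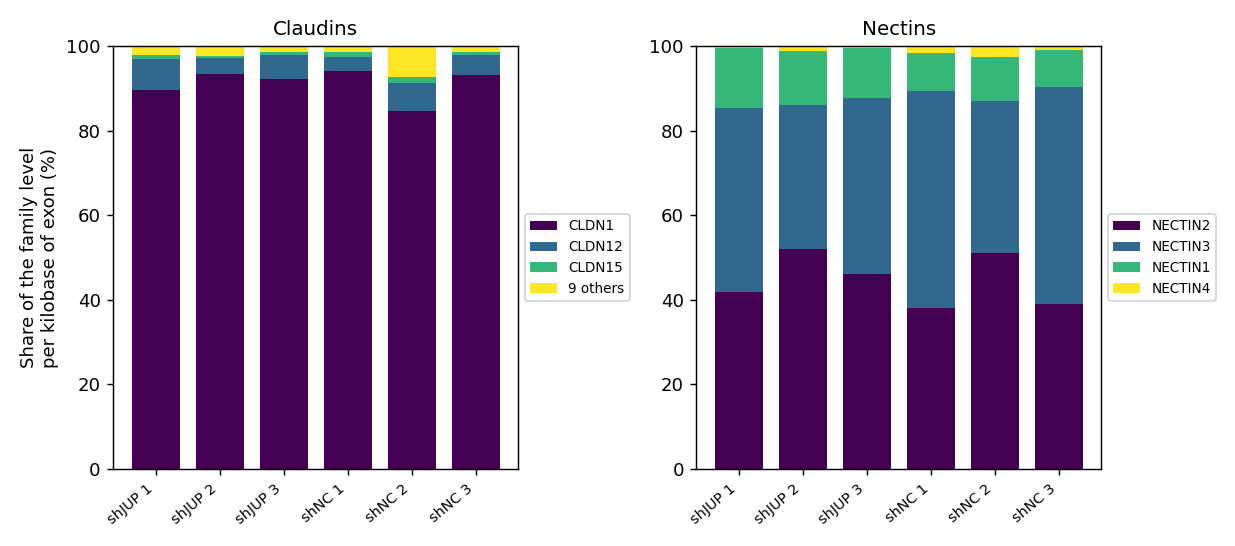
Share of each family's summed level per kilobase of exon in every library (percent), for the 12 claudins on the left and the 4 nectins on the right, shJUP libraries first. CLDN1 holds 84.7% to 94.0% of the claudin level, and NECTIN1 holds 11.6% to 14.0% of the nectin level in shJUP and 8.79% to 10.4% in shNC.

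Among the other membrane proteins, F11R had the largest spread between libraries of one group. F11R encodes JAM-A, an immunoglobulin-like adhesion protein that recruits polarity proteins to the junction. It stood at 74.0, 213 and 59.7 CPM in shJUP 1, 2 and 3, against 107, 209 and 158 CPM in shNC 1, 2 and 3. shJUP 2, the library that kept most JUP, was the highest of the 6, and the other 2 shJUP libraries were lower than every control. The number-2 library was also the highest of the controls, and a relation of F11R to the remaining JUP was not tested. Over all libraries the log2 fold change was -0.45 (SE 0.49, edgeR adjusted p = 0.77). Leaving out both number-2 libraries gave -0.98, which passed in DESeq2 (adjusted p = 0.00038) and not in edgeR (adjusted p = 0.11). In that DESeq2 fit 4.51% of all genes passed, 2.08% higher and 2.43% lower in shJUP. For F11R, leaving out shJUP 2 alone gave -1.24, and leaving out shJUP 1, shJUP 3 or shNC 2 gave -0.21, -0.14 and -0.20.

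OCLN, which encodes occludin, was at 44.8, 52.9 and 42.6 CPM in shJUP 1, 2 and 3, against 33.8, 43.9 and 41.7 CPM in shNC 1, 2 and 3 (log2 0.23, SE 0.14, edgeR adjusted p = 0.62). MARVELD2, the tricellulin that seals corners where 3 cells meet, was at 20.6, 17.0 and 21.0 CPM in shJUP against 16.3, 15.0 and 18.5 CPM in shNC (log2 0.24, SE 0.15, edgeR adjusted p = 0.62). Both genes were higher in shJUP than in the control of the same number in 3 of 3 numbers, and both overlapped between the groups. The share of all genes with that pattern was not counted, and no label makes same-numbered libraries pairs. JAM2 was at 2.91 ± 0.79 CPM in shJUP and 3.36 ± 0.39 CPM in shNC, and CXADR, the coxsackievirus and adenovirus receptor, at 4.12 ± 2.4 CPM in shJUP and 5.29 ± 3.8 CPM in shNC. MARVELD3 (3 to 9 counts) and JAM3 (0 to 1 count) were not tested.

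No scaffold passed the test. TJP1, which encodes ZO-1, was at 249, 188 and 229 CPM in shJUP 1, 2 and 3, against 236, 192 and 215 CPM in shNC 1, 2 and 3. The number-2 library was the lowest in both groups, and the log2 fold change of 0.05 (SE 0.14) had a 95% interval from -0.28 to 0.38. CGN, which encodes cingulin, a cytoplasmic protein that binds ZO-1, was at 6.14, 10.7 and 5.63 CPM in shJUP against 9.12, 10.7 and 8.05 CPM in shNC (log2 -0.31, SE 0.28, edgeR adjusted p = 0.72). Its relative CGNL1, paracingulin, was at 16.7, 20.6 and 22.7 CPM in shJUP against 25.4, 38.7 and 17.9 CPM in shNC (log2 -0.45, SE 0.28, edgeR adjusted p = 0.62). This value rests largely on shNC 2, without which it was -0.11. TJP3, which encodes ZO-3, had 1 to 30 counts and was not tested. Most of its counts were in the number-2 libraries, with 11 in shJUP 2 and 30 in shNC 2 and at most 2 elsewhere.

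No gene of the PAR complex passed the test. PARD3, its scaffold, was at 112, 110 and 125 CPM in shJUP 1, 2 and 3, against 98.5, 102 and 102 CPM in shNC 1, 2 and 3. Each shJUP library was above each control, but the difference was small, with a log2 fold change of 0.19 (SE 0.10, 95% interval -0.04 to 0.42, edgeR adjusted p = 0.56). PRKCI, the atypical protein kinase C of the complex and a gene often amplified in ovarian carcinoma, was at 131, 154 and 142 CPM in shJUP against 141, 143 and 138 CPM in shNC (log2 0.02, SE 0.10, 95% interval -0.22 to 0.25). PARD6B, the adaptor between kinase and scaffold, was at 6.74 ± 1.7 CPM in shJUP and 8.12 ± 2.7 CPM in shNC (log2 -0.27, SE 0.30).

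The Crumbs complex was uneven in level. PALS1, its scaffold, was at 140, 132 and 135 CPM in shJUP 1, 2 and 3, against 139, 119 and 123 CPM in shNC 1, 2 and 3 (log2 0.10, SE 0.10), and PATJ, the scaffold that PALS1 binds, at 56.0 ± 5.2 CPM in shJUP and 50.9 ± 4.5 CPM in shNC (log2 0.14, SE 0.12). CRB3, the membrane protein on which the complex is built in epithelia, had only 7, 35 and 19 counts in shJUP 1, 2 and 3, against 4, 19 and 6 counts in shNC 1, 2 and 3. Per kilobase of exon CRB3 reached 0.684 ± 0.47 CPM in shJUP and 0.326 ± 0.27 CPM in shNC, where PALS1 had 15.5 ± 0.48 CPM in shJUP and 14.5 ± 1.2 CPM in shNC. CRB3 was higher in shJUP in 3 of 3 numbers, a pattern not counted over all genes, with overlapping groups (log2 1.06, SE 0.72, edgeR adjusted p = 0.64). Its log2 value was 0.43 without shJUP 2 and 1.97 without shNC 2.

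The promoters were searched for a motif of epithelial repression. The E-box CAGGTG, on the other strand CACCTG, is the motif that repressors of the SNAIL and ZEB families are known to bind in epithelial genes. The 250 bases before the RefSeq start were searched only for members with exactly 1 start listed, which were 16 of the 33. Of these 16, 3 (18.8%) held the motif on either strand (CRB3, PATJ and NECTIN4). The share over all 35116 RefSeq promoters of the same length was near this, at 17.5%, and was taken without that rule. CRB3 held 5 copies, at -228, -208, -147, -89 and -60 from the start, and PATJ held 2, at -171 and -30, counted to the first base of the match with -1 just before the start. NECTIN4 held 1, at -38. The sequences are shown because these are all the searched members with a match, and the remaining members were not searched. They are given 5′ to 3′ on the gene's strand, in RefSeq's build GRCh38.p14, with the E-boxes in capitals.
CRB3 (chr19:6464021-6464270, plus strand): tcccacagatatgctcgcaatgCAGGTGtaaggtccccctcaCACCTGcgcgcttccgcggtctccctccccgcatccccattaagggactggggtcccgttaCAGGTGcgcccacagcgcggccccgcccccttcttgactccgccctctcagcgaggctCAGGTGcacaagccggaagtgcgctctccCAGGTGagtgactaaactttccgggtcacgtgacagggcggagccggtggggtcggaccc
PATJ (chr1:61742230-61742479, plus strand): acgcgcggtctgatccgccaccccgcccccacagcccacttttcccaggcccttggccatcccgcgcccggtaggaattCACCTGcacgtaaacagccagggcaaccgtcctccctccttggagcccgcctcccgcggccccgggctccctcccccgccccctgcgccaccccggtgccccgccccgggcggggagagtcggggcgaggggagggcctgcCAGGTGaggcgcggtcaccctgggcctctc
NECTIN4 (chr1:161089559-161089808, minus strand): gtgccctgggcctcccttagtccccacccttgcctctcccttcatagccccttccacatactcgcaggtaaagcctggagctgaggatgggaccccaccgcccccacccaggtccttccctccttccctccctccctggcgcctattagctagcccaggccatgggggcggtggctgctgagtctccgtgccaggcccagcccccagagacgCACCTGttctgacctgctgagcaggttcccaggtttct
A match is only a run of letters, and binding was not measured. CRB3, with the most copies, was at trace level in all 6 libraries, and NECTIN4 was also low, at 0.614 to 3.35 CPM. PATJ was at 46.8 CPM or more in each library, so the 3 genes with a match did not all share a level.

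Of the nectins, NECTIN1 had the lowest unadjusted edgeR p over all 6 libraries (0.038). It stood at 31.6, 35.7 and 30.6 CPM in shJUP 1, 2 and 3, against 24.2, 29.4 and 23.6 CPM in shNC 1, 2 and 3. Every shJUP library was above every control, the nearest pair being shJUP 3 and shNC 2. The log2 fold change was 0.34 (SE 0.14, 95% interval 0.03 to 0.66) and missed the threshold in edgeR (adjusted p = 0.47) and in DESeq2 (adjusted p = 0.44). It kept its direction in every setting run, from 0.27 to 0.45, with adjusted p-values of 0.15 to 0.89.

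NECTIN3, which binds NECTIN1 and NECTIN2 on the neighbouring cell more strongly than either binds itself, lay the other way. It was at 78.9, 77.3 and 88.4 CPM in shJUP 1, 2 and 3, against 112, 81.3 and 110 CPM in shNC 1, 2 and 3 (log2 -0.31, SE 0.15, edgeR adjusted p = 0.54). The groups overlapped at shJUP 3 and shNC 2. Without both number-2 libraries its adjusted p was below that of NECTIN1, at 0.16 against 0.18 in edgeR and 0.10 against 0.31 in DESeq2. The ratio of NECTIN1 to NECTIN3 within a library, which does not depend on scaling and was chosen after the values were seen, was 0.401, 0.462 and 0.346 in shJUP and 0.217, 0.361 and 0.214 in shNC. shNC 2 lay among the shJUP values. Per kilobase, NECTIN1 was 14.0%, 12.6% and 11.6% of the summed nectin level in shJUP and 8.94%, 10.4% and 8.79% in shNC, with no overlap. That share is built from the same NECTIN1 and NECTIN3 values and is no separate support.

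NECTIN2, a ligand of immune receptors on T and NK cells, was at 45.8, 71.7 and 59.5 CPM in shJUP against 50.0, 69.9 and 51.0 CPM in shNC (log2 0.05, SE 0.20). It shared the first place among nectins per kilobase with NECTIN3: 15.7 ± 3.5 CPM in shJUP and 15.2 ± 3.0 CPM in shNC for NECTIN2, and 13.2 ± 0.97 CPM in shJUP and 16.3 ± 2.8 CPM in shNC for NECTIN3. NECTIN4, the target of an antibody-drug conjugate in bladder cancer, had 11, 29 and 16 counts in shJUP 1, 2 and 3, against 38, 63 and 23 counts in shNC 1, 2 and 3. It was lower in shJUP in each number, a pattern not counted over all genes, with overlapping groups (log2 -1.15, SE 0.49, edgeR adjusted p = 0.50).

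**Figure D3:**
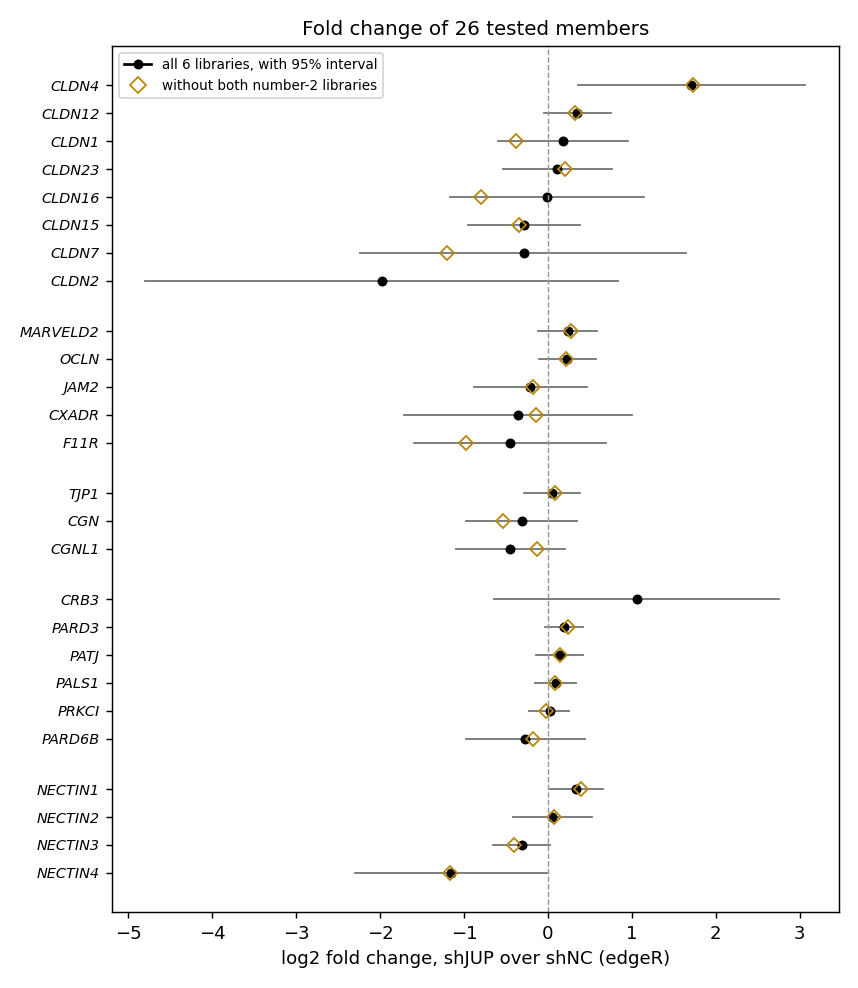
Log2 fold change by edgeR, shJUP over shNC, of the 26 tested members by role, with 95% intervals (black), and the same without both number-2 libraries (open diamonds, absent where the gene was not tested there). CLDN1 and F11R shift to -0.38 and -0.98 without those libraries, and CLDN4 and NECTIN1 have intervals above 0, with adjusted p-values of 0.44 and 0.47.

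Across roles, the levels per kilobase of exon in shNC ran from CLDN1 (103 ± 39 CPM) through F11R (31.2 ± 10), PRKCI (24.1 ± 0.40) and TJP1 (19.0 ± 2.0) to NECTIN3, PARD3, NECTIN2 and PALS1 at 16.3 to 14.5 CPM. Each neighbouring pair from TJP1 down to PALS1 differed by less than the larger of its SDs, as did F11R and PRKCI, so their order is not settled by these libraries. OCLN (5.89 ± 0.78), CLDN12 (5.11 ± 0.96) and PATJ (4.25 ± 0.37) came next, followed by NECTIN1 (3.34 ± 0.41), CGNL1 (3.15 ± 1.2) and MARVELD2 (3.09 ± 0.33). With the longest transcript as length the order in shNC changed in places, NECTIN3 (27.6 CPM) standing beside TJP1 (26.9 CPM) and CLDN12 (9.66 CPM) above OCLN (6.18 CPM). By union of exons, the other 12 tested members lay between 1.72 CPM (PARD6B) and 0.145 CPM (CLDN4). In shJUP the order of the first 4 was CLDN1 (116 ± 35 CPM), PRKCI (24.4 ± 2.0), F11R (22.8 ± 17) and TJP1 (19.7 ± 2.8).

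The number-2 libraries of both groups moved together for many of these genes. In 14 of the 26 tested members (53.8%) the number-2 library was the highest of its group in both shJUP and shNC, and in 5 (19.2%) it was the lowest in both, while over all tested genes these shares were 25.8% and 26.0% (51.8% for either). The 14 are F11R, CXADR, CGN, PARD6B, CRB3, CLDN2, CLDN4, CLDN7, OCLN, PATJ, PRKCI, NECTIN1, NECTIN2 and NECTIN4. The 5 are CLDN15, MARVELD2, TJP1, PALS1 and NECTIN3. JUP was the highest in number 2 in both groups too, and so were 7 of the 13 carcinoma markers (ERBB2, KRT19, EPCAM, MUC1, MSLN, WFDC2 and CDH1). Of these, MSLN, WFDC2 and CDH1 had too few counts to be tested, so the shares over tested genes do not cover them. WFDC2 had at most 4 counts in any library. KRT8 and WT1 were the lowest in number 2 in both groups, and KRT7, KRT18, PAX8 and MUC16 were neither. No label tells what the library numbers mean, and the part of these values in the results was not tested.

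**Figure D4:**
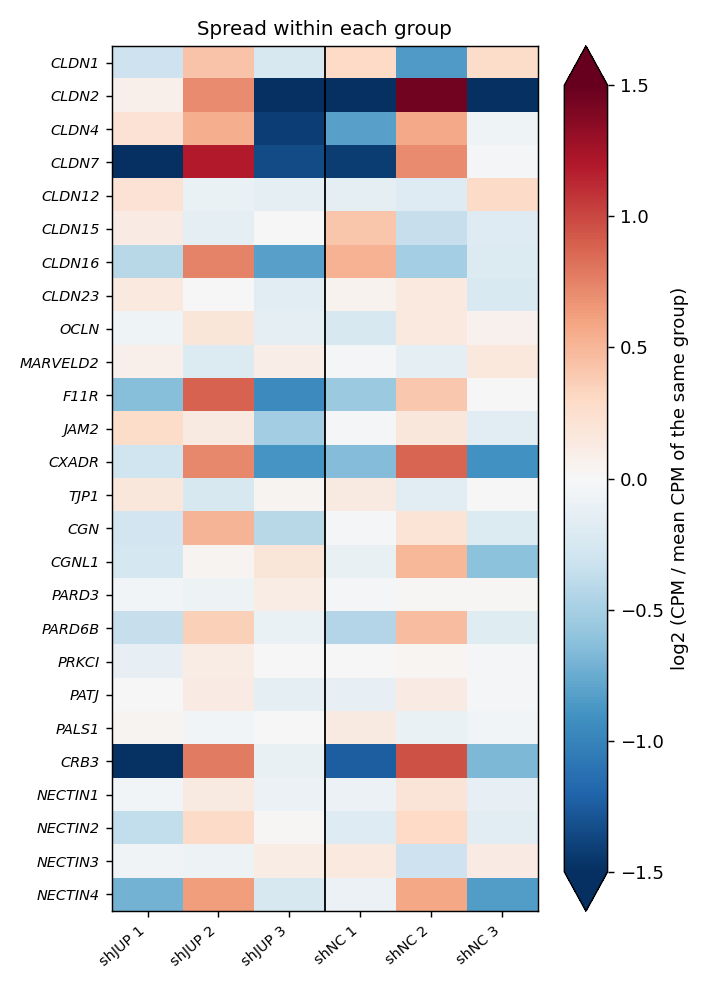
Each library's level of the 26 tested members relative to the mean of its own group, as log2 of the ratio of CPM (colour scale clipped at -1.5 and 1.5), with shJUP libraries left of the line and shNC libraries right of it. The number-2 columns of both groups are above the group mean for F11R, CXADR, CLDN7 and CRB3, while CLDN1 is above it in shJUP 2 and below it in shNC 2.

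The other genes of these systems were read from lists of 64 names. Of these 47 were tested, 24 above 0 and 23 below with a median log2 of 0.01, and edgeR called 0 of them. At an unadjusted edgeR p under 0.05 stood 6 of them, 5 higher and 1 lower, which is 12.8% against 10.0% of all genes, so the count is near the background. The groups did not overlap for 6 that were higher and 2 that were lower in shJUP. That is 17.0%, the same as the 17.0% of all genes. Of the 12 other claudins only CLDN14 (3.49 ± 1.2 CPM in shJUP and 6.25 ± 4.2 CPM in shNC) and CLDN11 (0.539 ± 0.096 CPM in shJUP and 0.922 ± 0.094 CPM in shNC) had enough counts to be tested. DESeq2 called CLDN14 lower without both number-2 libraries (adjusted p = 0.047), a fit that called 4.51% of all genes, 2.43% of them all lower. AFDN, which encodes afadin, the scaffold that nectins bind inside the cell, was at 215, 186 and 177 CPM in shJUP against 120, 169 and 133 CPM in shNC (log2 0.45, SE 0.15, edgeR adjusted p = 0.44), without overlap. DESeq2 called it higher without both number-2 libraries (adjusted p = 0.0028), where 2.08% of all genes were called higher, and not with all 6 (0.24). MPDZ, a PDZ scaffold related to PATJ, was lower in each shJUP library, at 43.6, 52.8 and 39.1 CPM against 57.1, 67.0 and 54.5 CPM in shNC (log2 -0.40, SE 0.15, edgeR adjusted p = 0.45). LIN7B (log2 0.93, SE 0.33) and LIN7C (0.24, SE 0.10), which bind PALS1, and TJAP1 (0.35, SE 0.15) had unadjusted edgeR p-values of 0.023, 0.042 and 0.047. CDC42, the GTPase that activates the PAR complex, was at 640 ± 25 CPM in shJUP and 634 ± 15 CPM in shNC, and DLG1, a basolateral scaffold, at 383 ± 23 CPM in shJUP and 340 ± 19 CPM in shNC. The other genes named for their level passed in no fit: BVES (log2 0.04, SE 0.21), AMOTL2 (0.31, SE 0.26), ARHGEF2 (-0.09, SE 0.15) and the nectin-like PVR (0.19, SE 0.18). CLMP, an adhesion protein related to CXADR, was at 259 ± 51 CPM in shJUP and 224 ± 17 CPM in shNC.

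**Figure D5:**
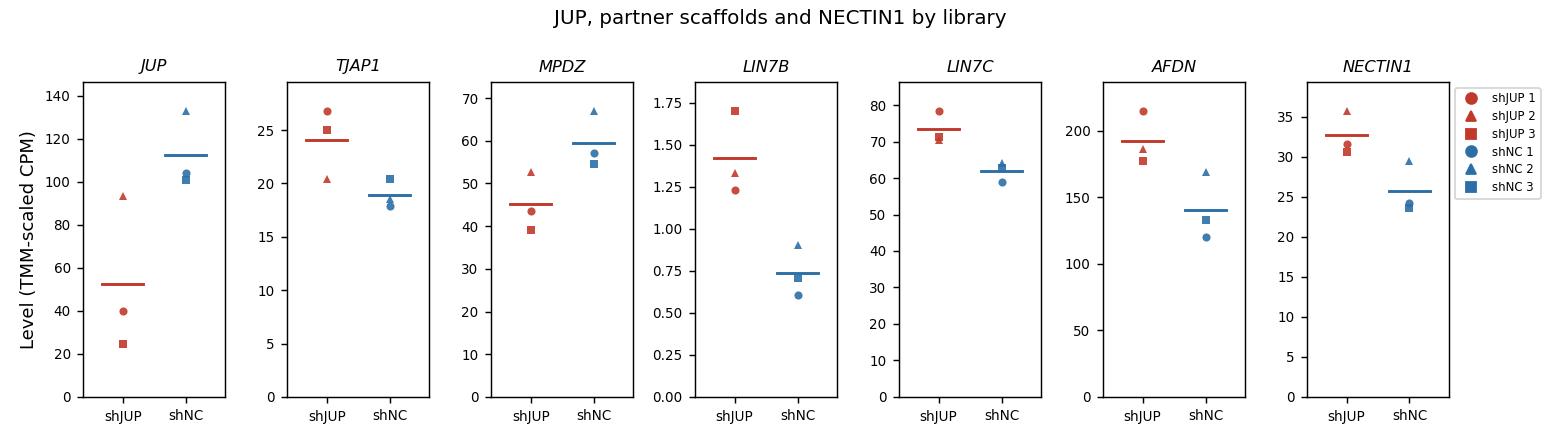
TMM-scaled CPM of JUP, 5 scaffold genes outside the member list and NECTIN1 in each library (axes start at 0, bars at group means, shJUP left of shNC). JUP and MPDZ are lower in every shJUP library, and LIN7B, LIN7C, AFDN and NECTIN1 are higher in every one, while TJAP1 touches at 20.4 CPM. Groups without overlap made up 17.0% of the tested genes outside the member list and 17.0% of all genes.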

How the data were processed

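Values were the authors' deposited estimated counts, one per Ensembl gene and library, unscaled between the 6 libraries. STAR 2.7.9a, RSEM 1.3.3, edgeR 3.32.1 and DESeq2 1.26.0 appear in the tool list, per the submitters' processing notes, without their roles. No build, annotation release or strand setting is stated in these sources, so reads of overlapping and antisense genes cannot be told apart. The 31 of 60695 rows that lacked an Ensembl identifier were dropped. Counts were rounded; they were whole (within 0.005) in every library for 20 of the 33 members.

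The comparison used edgeR 4.0.16 in R 4.3.3 on all genes: filterByExpr (15867 genes kept), TMM scaling (factors 0.978 to 1.028), the two-sided quasi-likelihood test and Benjamini-Hochberg adjustment at 0.05. The SE was taken as the size of the log2 value divided by the root of its F statistic. DESeq2 1.42.0 was the second tool and limma 3.58.1 (voom) an alternative. Levels per kilobase use the union of exons in GENCODE 29. Of the pathway genes outside the member list, 1 is counted but not reported here. The members, lists and tests were chosen with earlier results of these data known. The rule for genes given with every library value took members with a call, an unadjusted edgeR p under 0.05 or no overlap, and the 3 most abundant of each role; CLDN2, CRB3, NECTIN4 and TJP3 were added after their values were seen. On simulated counts for the 15867 genes edgeR recovered 49% of 2-fold and 93% of 4-fold changes, and DESeq2 79% and 95%. The changed genes were drawn only from the more abundant ones, so these shares do not cover members with few counts. The simulated libraries also lacked the shared deviation of the number-2 libraries. In this simulation edgeR also called 4 unchanged genes and DESeq2 41.

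The number-2 libraries deviated together from their groups (r across genes 0.51). The r was 0.14 for number 1 and 0.20 for number 3, and 0.15 for shJUP 1 with shNC 3. Levels were centred within each group of 3, so a shared deviation of number 2 also raises the r among the other libraries. These values therefore do not show that number 1 or number 3 deviated together. Each same-numbered r was above 0.1, and the number was fitted as a block in alternative runs. Except where a block is named, the fits had none and treated the libraries as unpaired. shJUP 3 and shNC 1 correlated at 0.39, above numbers 1 and 3. No replicates agreed within sampling noise (mean chi-square of 10 to 61.2 a gene). Intervals cover the fit's spread, or counting error where stated.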

Additional observations from a re-analysis of the deposited data

How the results depend on the processing

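The count of members called was 0 under every setting run except DESeq2 without both number-2 libraries, which called 2 (CLDN1 and F11R, both lower in shJUP). In that fit 4.51% of all genes passed, 2.08% higher and 2.43% lower in shJUP. With the replicate block the count of members was 0 in edgeR, limma-voom and DESeq2. For the other pathway genes the block changed the count to 1 in DESeq2, where 5.25% of all genes passed. The other pathway genes called numbered 3 in DESeq2 without both number-2 libraries (among them AFDN, higher, and CLDN14, lower), again beside 4.51% of all genes. Over the whole table the count of 0 was 5 without the filter, 179 with DESeq2, 1 with the replicate block in edgeR, 696 in DESeq2 and 1 in limma-voom, 49 without both number-2 libraries and 643 there with DESeq2. JUP passed at -1.30 in DESeq2 with the block and at -1.66 in DESeq2 without both number-2 libraries, and ranged from -1.80 to -0.75 with 1 library left out. Of 26 tested members 17 kept their direction in all settings that gave a value. Of 463 such values 23 had the opposite sign. Without both number-2 libraries CLDN1 was at -0.38 in either tool, CLDN2 at 0.29 in DESeq2, PRKCI at -0.02 in edgeR and -0.03 in DESeq2, and CDC42 at -0.00 in DESeq2. CLDN16 was at 0.01 with library totals only and CDC42 at -0.00 with upper-quartile scaling. With 1 library left out the lowest and highest values of those that turned were -0.11 and 0.35 for CLDN1, -2.53 and 0.83 for CLDN2, -1.76 and 0.26 for CLDN7, -0.61 and 0.33 for CLDN16, -0.92 and 0.41 for CXADR, -0.04 and 0.16 for TJP1, -0.49 and 0.03 for PARD6B, -0.04 and 0.08 for PRKCI, -0.11 and 0.22 for NECTIN2, -0.22 and 0.17 for BVES and -0.02 and 0.04 for CDC42. The cause was not tested. Other scalings moved the median of all genes by at most 0.032, and 3 members did not overlap with library totals only. With the longest transcript as length CLDN1 held 86.8% of the claudin level in shNC. Depth limits the members under about 1 CPM, where a library held few counts.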
